A study of Mus musculus with 24 samples.

Results

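The genotype difference in the IL-4 response is the part of the transcriptional response to interleukin 4 (IL-4) that differs between macrophages lacking OGT and wild-type macrophages. It was measured in 16 of the 24 libraries of the series by RNA sequencing of total RNA. The cells were bone marrow-derived macrophages, which are grown from marrow precursors in culture, from C57BL/6J mice aged 12 weeks. The 4 groups of 4 libraries were OGT knockout (KO) cells stimulated for 12 hours with 10 ng/ml IL-4 (KO IL-4), unstimulated KO cells (KO M0), wild-type (WT) cells given the same IL-4 treatment (WT IL-4) and unstimulated WT cells (WT M0). The other 8 libraries, from cells given LPS, were not part of the comparison. For each gene the interaction was (KO IL-4 minus KO M0) minus (WT IL-4 minus WT M0) on the log2 scale, tested as a single term, so that a positive value means a response that was higher in KO. What drives the deletion, which part of Ogt it removes and how many animals were used were not given in the sources used here. Nor do the labels say whether libraries of a group came from separate animals or cultures, so p-values measure only the spread between these libraries. Values are listed in the order of the numbers in the label codes, 5, 6, 7 and 8 in KO and 1, 2, 3 and 4 in WT.

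OGT places a single sugar, N-acetylglucosamine, on the oxygen of serine and threonine side chains in nuclear and cytoplasmic proteins, and OGA (Mgea5 in these files) removes the sugar. IL-4 binds the IL-4 receptor alpha chain, whose JAK kinases phosphorylate the transcription factor STAT6. STAT6 then switches on the genes of the alternatively activated, or M2, macrophage, among them Arg1, Retnla, Chil3 and Mrc1, and SOCS1 feeds back on the kinases. IL-4 also raises the transcription factor MYC in macrophages, whose known targets include genes of ribosome production and cell growth.

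Promoter windows of genes measured here were searched for letters of the kind that STAT6 or MYC binds. The windows are RefSeq sequences of GRCm38.p6, from 250 bases before to 50 bases after an annotated start, and of the 24421 gene symbols in the files 24300 matched the RefSeq gene table. Retnla and Cdca7 are printed because their windows hold TTCNNNNGAA, letters of the kind that STAT6 prefers, in a marker whose interaction was not called and in a gene whose interaction was. Bzw2 and Nop2 are printed because theirs hold CACGTG, the E-box that MYC binds with its partner MAX, in genes whose interaction was lower. Capitals mark the match, and all 4 sequences run 5′ to 3′ on the gene's own strand.
Retnla, chr16:48842359-48842658, plus strand: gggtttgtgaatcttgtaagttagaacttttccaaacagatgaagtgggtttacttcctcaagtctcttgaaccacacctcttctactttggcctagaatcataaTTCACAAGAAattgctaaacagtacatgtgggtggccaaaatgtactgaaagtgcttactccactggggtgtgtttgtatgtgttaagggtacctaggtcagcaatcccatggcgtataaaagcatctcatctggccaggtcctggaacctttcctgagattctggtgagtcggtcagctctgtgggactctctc
Cdca7, chr2:72475969-72476268, plus strand: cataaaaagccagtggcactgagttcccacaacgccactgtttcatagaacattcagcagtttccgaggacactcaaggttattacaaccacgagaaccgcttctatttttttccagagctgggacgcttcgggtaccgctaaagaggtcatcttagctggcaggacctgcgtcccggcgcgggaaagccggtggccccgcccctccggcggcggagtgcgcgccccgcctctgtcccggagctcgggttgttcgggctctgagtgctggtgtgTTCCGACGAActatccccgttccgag
Bzw2, chr12:36156776-36157075, minus strand: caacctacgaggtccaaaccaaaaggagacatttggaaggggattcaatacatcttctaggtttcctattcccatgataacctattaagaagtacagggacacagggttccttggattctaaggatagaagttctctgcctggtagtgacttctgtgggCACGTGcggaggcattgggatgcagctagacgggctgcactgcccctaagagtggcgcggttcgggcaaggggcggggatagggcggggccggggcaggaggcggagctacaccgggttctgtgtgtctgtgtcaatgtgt
Nop2, chr6:125131633-125131932, plus strand: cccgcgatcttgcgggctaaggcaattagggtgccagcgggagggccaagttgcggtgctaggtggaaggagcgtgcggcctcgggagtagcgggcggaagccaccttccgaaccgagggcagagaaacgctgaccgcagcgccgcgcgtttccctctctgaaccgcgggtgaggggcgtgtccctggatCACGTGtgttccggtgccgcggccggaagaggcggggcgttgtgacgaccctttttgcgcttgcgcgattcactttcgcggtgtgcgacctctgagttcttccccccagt
Both motifs read the same on either strand, and a single stretch of letters can match both. The match began 145 bases before the annotated start in Retnla, 24 after it in Cdca7, 91 before it in Bzw2 and 60 before it in Nop2. CACGTG was present for 25 of 136 genes whose interaction was lower (18.4%), for 12 of 97 whose interaction was higher (12.4%), for 1307 of 11413 genes tested with a window (11.5%) and in 7.15% of all 32851 windows. TTCNNNNGAA was present for 13 of 136 lower (9.56%), 7 of 97 higher (7.22%), 770 of 11413 tested (6.75%) and in 6.95% of all windows. These shares describe letters and were not tested.

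The 16 libraries held 63429271 to 94942464 gene counts each, with 15958 to 16517 genes detected. In a principal component analysis the first component (72.5% of the variance) separated IL-4 from M0 libraries and the second (13.8%) separated KO from WT. The third (4.81%) separated KO numbers 5 and 6 from KO numbers 7 and 8 in both states. Markers of macrophages (10 of 10 tested) summed to 6010 to 6392 CPM (counts scaled to library size) in KO IL-4, 8263 to 10361 CPM in KO M0, 6740 to 7572 CPM in WT IL-4 and 13381 to 15224 CPM in WT M0. A single marker, Lyz2, made most of that difference: the other 9 summed to 3313 to 3989 CPM in KO IL-4, 3258 to 4275 CPM in KO M0, 3681 to 3933 CPM in WT IL-4 and 4151 to 4479 CPM in WT M0. Markers of stromal cells summed to 11416 to 15032 CPM in KO IL-4 and 15949 to 20513 CPM in KO M0. In WT the sums were 7793 to 8331 CPM in IL-4 and 11200 to 13065 CPM in M0. The collagen genes Col1a1, Col1a2 and Col3a1 made most of these sums, and the other markers of the list were lower to differing degrees. In KO IL-4 libraries Col1a1 stood at 5711, 5751, 7586 and 6279 CPM. Cxcl12 stood at 457, 410, 360 and 374 CPM there, Pdgfrb at 99.7, 99.5, 128 and 112 CPM and Pdgfra at 69.2, 64.0, 59.0 and 57.3 CPM. Dcn stood at 1.70, 2.04, 2.39 and 2.24 CPM in the same libraries and Lum at 0.238, 0.292, 0.408 and 0.332 CPM. The interaction was called for 0 of 8 stromal markers by edgeR and by DESeq2 (1 at an unadjusted p under 0.05), of which Col1a1, a collagen of fibroblasts and bone cells, had 0.06 ± 0.14 (SE). Markers of endothelial cells summed to 86.7 to 120.1 CPM in KO IL-4, 47.9 to 107.3 CPM in KO M0, 54.9 to 65.6 CPM in WT IL-4 and 28.5 to 31.9 CPM in WT M0, and 0 of 8 were called (1 at an unadjusted p under 0.05, 1 by DESeq2). Vwf made most of the KO IL-4 sums, at 65.9, 70.2, 70.9 and 63.1 CPM, against 20.6, 20.6, 21.5 and 24.9 CPM in KO M0. Cdh5, an endothelial adhesion molecule, stood at 2.03, 1.85, 9.6 and 9.42 CPM in KO IL-4 and 3.74, 5.37, 23.7 and 23.3 CPM in KO M0. Its numbers 7 and 8 were thus high in both states. Pecam1, Kdr, Tek, Egfl7, Esam and Emcn were also higher in KO numbers 7 and 8 than in 5 and 6 in both states. Vwf did not separate these numbers in IL-4. Of the macrophage markers, Adgre1, Csf1r, Cd68, Fcgr1 and Spi1 were lower in KO numbers 7 and 8 than in 5 and 6 in both states. Csf1r stood at 1608, 1483, 1084 and 1067 CPM in KO M0. Itgam, Lyz2 and Cd14 were higher in KO numbers 7 and 8 in IL-4 but not in M0. Of the stromal markers, Col1a1, Col1a2, Col3a1 and Pdgfrb were higher in KO numbers 7 and 8 in both states, and Pdgfra and Cxcl12 were lower. Summed markers of T and NK, B, dendritic and erythroid cells stayed at 5.52 CPM or less in every library, with 1 T and NK marker, 1 B cell marker and 2 erythroid markers at 0 throughout. Those of neutrophils ranged over 9.96 to 28.2 CPM, of mast cells and basophils over 5.80 to 23.6 CPM, of eosinophils over 2.25 to 4.05 CPM and of megakaryocytes over 366 to 696 CPM, and none of these lists had a called interaction. A single gene, Pf4, made most of the megakaryocyte sums, at 433, 425, 364 and 367 CPM in KO IL-4. The other megakaryocyte markers were far lower, the highest value being 1.98 CPM, for Ppbp in WT M0 number 1. Mcpt8 made most of the sums of mast cells and basophils. The part of all these cell types in the results was not tested. In bulk RNA fewer cells of a type and less RNA per cell cannot be told apart.

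The targeted gene, Ogt (chrX:101640011-101684351, GRCm38.p6), stood at 36.8, 33.7, 35.8 and 35.4 CPM in KO IL-4 libraries, 37.3, 37.2, 39.3 and 38 CPM in KO M0, 52.5, 56.6, 60.04 and 61.6 CPM in WT IL-4 and 51.6, 55.3, 51.4 and 57 CPM in WT M0. Every KO library lay below every WT library in both states. Its IL-4 response was not called in either genotype, at a log2 value of -0.10 in KO and 0.10 in WT, and its interaction of -0.20 ± 0.074 was not called (adjusted p = 0.174 in edgeR's quasi-likelihood test, Benjamini-Hochberg over 14504 genes, as are all adjusted p-values here). Because the deleted part is not given, the remaining counts do not measure intact transcript. Mgea5, the gene of the opposing enzyme OGA, had an IL-4 response of -0.30 in KO and -0.32 in WT, and the 95% interval of its interaction was -0.12 to 0.16. Among the 15 genes of the hexosamine pathway and O-GlcNAc cycling, which make and use the sugar donor, 0 were called (1 higher and 1 lower at an unadjusted p under 0.05, 0 by DESeq2's Wald test) and the median interaction was 0.02.

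A difference between genotypes in the IL-4 response was called for a small share of genes, and the number of calls depended on the libraries and the fit. The interaction was called, at an adjusted p under 0.05, for 300 of 14504 genes (2.07%), 135 higher (0.931%) and 165 lower (1.14%). With DESeq2's size factors in place of TMM the split was 114 higher and 224 lower, so the share of higher calls was 33.7% in place of 45%. A block on label number, not used because the numbers were not taken to pair the libraries, gave 875 higher and 755 lower. The KO number pair as a term, chosen after seeing the data, gave 543 and 494. For comparison, IL-4 itself raised 3919 and lowered 3941 genes in KO (54.2% called) and raised 4380 and lowered 4740 in WT (62.9% called). Differences in response were small in size, with a median log2 value of 0.44 for genes called higher and -0.36 for genes called lower. The difference reached 1.5-fold for 31 higher and 26 lower genes and 2-fold for 6 and 10. At an unadjusted p under 0.05 in the same test there were 1224 higher and 1219 lower genes of 14504. Called or not, 7940 genes had a positive and 6564 a negative interaction with TMM scaling. The median over all genes was 0.0231 with TMM and 0.000151 with DESeq2's size factors, so this split depends on the scaling. IL-4 moved 239 of the 300 genes the same way in both genotypes, 221 of them less in KO and 18 more. Over all genes tested 67.3% had the smaller response in KO, and the share that moved the same way in both is not given here. Of the 165 lower genes, 138 rose with IL-4 in both genotypes, and another 20 rose in WT only by the test. Of the 135 higher genes, 83 fell in both genotypes, 20 fell in WT and were not called in KO, and 16 rose in both. The value that chose these genes fixes within each such class which genotype moved less, so the counts are a description. The number of calls depended on single libraries. It was 139 without KO IL-4 number 7, 199 without KO IL-4 number 8, 138 without KO M0 number 7, 142 without KO M0 number 8, 123 without WT IL-4 number 1, 114 without WT IL-4 number 2 and 139 without WT IL-4 number 4. It was 131, 668, 110 and 128 without WT M0 numbers 1, 2, 3 and 4. Without both libraries of a label number it was 33 for number 1, 156 for number 3, 46 for number 4, 46 for number 7 and 62 for number 8. Of the 300 genes, 92 (37 higher and 55 lower, 0.634% of those tested) were called with every one of the 16 libraries left out in turn.

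The response was the smaller in KO for 67.3% of all genes tested and for 66.8% of the 14204 without a called interaction. With TMM scaling the share was no higher than that among genes that IL-4 raised, and it was higher among genes that IL-4 lowered. With DESeq2's size factors the share was higher for raised and lower for lowered genes, as given further below. The share over all genes was not recomputed with them. Of 1632 genes that IL-4 raised by a mean log2 value of at least 0.5 over both genotypes, 66.2% had the smaller response in KO, with a median response of 0.73 in KO and 0.84 in WT. Of 2766 genes lowered by at least 0.5, 76.1% had the smaller response in KO, with medians of -0.73 in KO and -0.89 in WT. At a mean of at least 2 the shares were 58.4% of 190 raised and 74.2% of 124 lowered genes. With called genes left out the shares at 0.5 were 64.7% of 1520 raised and 75.6% of 2699 lowered genes. Genes of a library are not independent, so these shares are descriptions and were given no test.

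**Figure D1:**
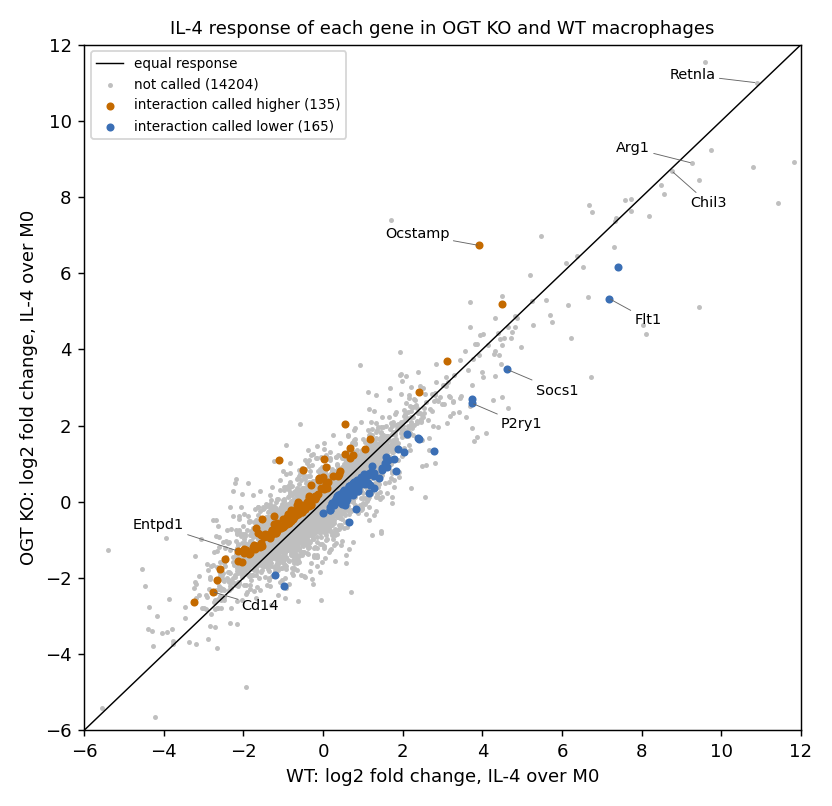
Log2 fold change of IL-4 over M0 in OGT KO (vertical axis) and in WT (horizontal axis) for 14504 genes, with the 135 genes whose interaction was called higher and the 165 called lower in colour and the line of equal response drawn. Arg1, Retnla and Chil3 lie by the line far to the upper right, Socs1 and P2ry1 lie below it, and Ocstamp lies above it.

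The classical markers of the M2 state showed no called difference in response, whereas a purinergic receptor of the same list did. Arg1 (chr10:24915207-24927470), the arginase that turns arginine into ornithine, stood at 6094, 6214, 6152 and 7598 CPM in KO IL-4 libraries, 12.9, 9.18, 17.2 and 15.8 CPM in KO M0, 7347, 7269, 6835 and 6915 CPM in WT IL-4 and 17.4, 10.4, 7.65 and 10.8 CPM in WT M0. The IL-4 libraries of both genotypes overlapped, as did the M0 libraries, and KO IL-4 number 8 was the highest of all 16. The interaction was -0.37 ± 0.27 with a 95% interval of -0.93 to 0.19. Retnla (chr16:48842609-48844461), a secreted resistin-like protein, stood at 4487, 4189, 2075 and 1776 CPM in KO IL-4 libraries, 3.65, 0, 1.87 and 0.549 CPM in KO M0, 4303, 4681, 3995 and 4551 CPM in WT IL-4 and 5.91, 0.791, 0 and 2.61 CPM in WT M0. It was low in KO IL-4 numbers 7 and 8 relative to numbers 5 and 6, and its interval of -1.96 to 2.2 was wide. Chil3, a secreted chitinase-like protein close in sequence to other family members, had 1012, 1000.0, 903 and 877 CPM in KO IL-4 and 1422, 1471, 829 and 926 CPM in WT IL-4, and its interval was -0.67 to 0.52. Mrc1, the mannose receptor, had an interaction of 0.20 (interval -0.15 to 0.56), with M0 levels of 999, 977, 665 and 637 CPM in KO and 987, 884, 1029 and 1097 CPM in WT, and it was 0.43 with KO numbers 7 and 8 alone (adjusted p = 0.0183). Ccl22 and Ccl24, ligands that draw T cells and eosinophils, had interactions of 0.16 (-1.01 to 1.33) and -0.31 (-1.18 to 0.56). For Pdcd1lg2, the PD-1 ligand PD-L2, the interaction was -0.98 (-1.98 to 0.02), and its M0 libraries in both genotypes held at most 0.12 CPM. Clec10a, a galactose-type lectin, had -0.40 (-1.04 to 0.23), and Slc7a2, an arginine transporter, had -0.29 (-0.56 to -0.02) and was called without WT M0 number 1 (adjusted p = 0.0350). The intervals of Retnla, Ccl22, Ccl24, Pdcd1lg2 and Clec10a reached past a 2-fold difference on 1 side or both, so the data do not show that those responses were equal. Of 34 tested markers in the list of 36, edgeR called 0 higher and 2 lower (5.88%, against 2.07% of all genes), with a median of -0.25 against 0.02 over all genes. DESeq2's Wald test called 1 higher and 4 lower of them. Counts of called list members are edgeR's wherever DESeq2 is not named. Over all genes DESeq2's Wald test called 265 higher and 581 lower of the 11692 to which it gave an adjusted p. That is a larger share than the 2.07% of edgeR, so its list counts are to be read against its own share.

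P2ry1 (chr3:61002785-61008982), a receptor for ADP, was one of the 2. It stood at 61.5, 65.3, 54.4 and 54.8 CPM in KO IL-4 libraries, 11, 10.7, 8.49 and 9.06 CPM in KO M0, 49, 46.9, 50.01 and 47.3 CPM in WT IL-4 and 3.26, 4.06, 4.11 and 3.03 CPM in WT M0. No groups overlapped: KO libraries were above WT libraries in both states, and by more in M0. IL-4 raised it by 2.59 in KO and 3.74 in WT, and the interaction was -1.15 ± 0.14 (adjusted p = 0.000496). Flt1 (chr5:147561604-147726438), a receptor for vascular endothelial growth factor, was the other, at 51.3, 48.5, 38.5 and 35.3 CPM in KO IL-4 libraries, 0.71, 0.532, 1.82 and 1.41 CPM in KO M0, 69.6, 57.6, 67.5 and 64.9 CPM in WT IL-4 and 0.564, 0.388, 0.498 and 0.326 CPM in WT M0. Its interaction was -1.85 ± 0.38 (adjusted p = 0.0206), but -0.86 with KO numbers 5 and 6 alone and -2.67 with numbers 7 and 8 alone, and it was not called without KO M0 number 8, WT M0 number 3 or WT M0 number 4 (adjusted p up to 0.0606). Its M0 level was high in the same KO libraries, 7 and 8, as Cdh5 above and Pecam1, another endothelial adhesion molecule, at 3.14, 3.58, 16.1 and 15.9 CPM in KO M0. The part of endothelial cells in this value was not tested.

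In the signalling path from the receptor, the feedback inhibitors Socs1 and Socs2 rose less in KO, and edgeR called no other of the 30 tested members (2 lower, 6.67%, median 0.06), while DESeq2's Wald test called 1 higher and 4 lower. Socs1 (chr16:10783808-10785536), which blocks the JAK kinases, stood at 50.3, 56.6, 45.3 and 34.4 CPM in KO IL-4 libraries, 3.98, 4.55, 4.23 and 3.99 CPM in KO M0, 75.8, 80.1, 65.8 and 65 CPM in WT IL-4 and 3.32, 3.66, 2.13 and 2.71 CPM in WT M0. The KO IL-4 libraries all lay below the WT IL-4 libraries, while the KO M0 libraries all lay above the WT M0 libraries. IL-4 raised it by 3.48 in KO and 4.61 in WT, so that the interaction was -1.13 ± 0.21 (adjusted p = 0.0129). Socs2 (chr10:95383903-95417321), a suppressor of growth hormone and cytokine signalling, had 26.3, 24.6, 24 and 22.4 CPM in KO IL-4 libraries, 11.8, 12.2, 12.2 and 12 CPM in KO M0, 36.5, 36.8, 36 and 35.7 CPM in WT IL-4 and 13.3, 12.2, 11.2 and 13 CPM in WT M0. Its M0 libraries overlapped and its IL-4 libraries did not, and the interaction was -0.53 ± 0.081 (adjusted p = 0.00284). Il4ra, the receptor chain itself, was lower in KO than in WT in M0 (log2 -0.59) and in IL-4 (-0.27). IL-4 lowered it in WT (-0.40) and was not called in KO (-0.08), and the interaction of 0.32 ± 0.094 was not called (adjusted p = 0.0822), although it was without KO M0 number 5 (adjusted p = 0.0300) and in DESeq2's Wald test (adjusted p = 0.0326). Stat6 had an interval of -0.03 to 0.27.

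Among 28 transcription factors tied to IL-4 responses, Myc and Bhlhe40 were called lower and 0 higher (7.14%; 3 lower by DESeq2's Wald test), and the median of the list was 0.003, or -0.02 with DESeq2's size factors. Myc (chr15:61985341-61990361) stood at 93.5, 95.6, 97 and 85 CPM in KO IL-4 libraries, 45.2, 48.1, 57.4 and 56.5 CPM in KO M0, 138, 131, 129 and 129 CPM in WT IL-4 and 48.5, 52.7, 41.8 and 47.2 CPM in WT M0. The M0 libraries of both genotypes overlapped, and all KO IL-4 libraries lay below all WT IL-4 libraries. IL-4 raised Myc by 0.84 in KO and 1.47 in WT, with an interaction of -0.63 ± 0.11 (adjusted p = 0.00778). Bhlhe40, a repressor that acts in the control of proliferation and of cytokine genes, averaged 167 ± 8.25 CPM in KO IL-4, 78.5 ± 12.4 CPM in KO M0, 194 ± 6.94 CPM in WT IL-4 and 63 ± 5.59 CPM in WT M0 (SD, n = 4). Its interaction was -0.53 ± 0.12, and it was not called in 9 of the 16 fits without 1 library (adjusted p 0.0113 to 0.0805). Pparg and Egr2, which IL-4 induces downstream of STAT6, had interactions of -0.02 (interval -0.23 to 0.19) and 0.01 (-0.18 to 0.19). Irf4 had a wider interval of -1.0 to 0.62, with 40.04, 36.2, 22.5 and 20.8 CPM in KO IL-4 and 33.6, 33, 32.5 and 33.4 CPM in WT IL-4. Of 29 PPAR targets and genes of fatty acid uptake and oxidation, 0 were called by edgeR or by DESeq2's Wald test, and 6 were higher at an unadjusted p under 0.05. Over all 14504 genes, 1224 were higher at that unadjusted p.

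**Figure D2:**
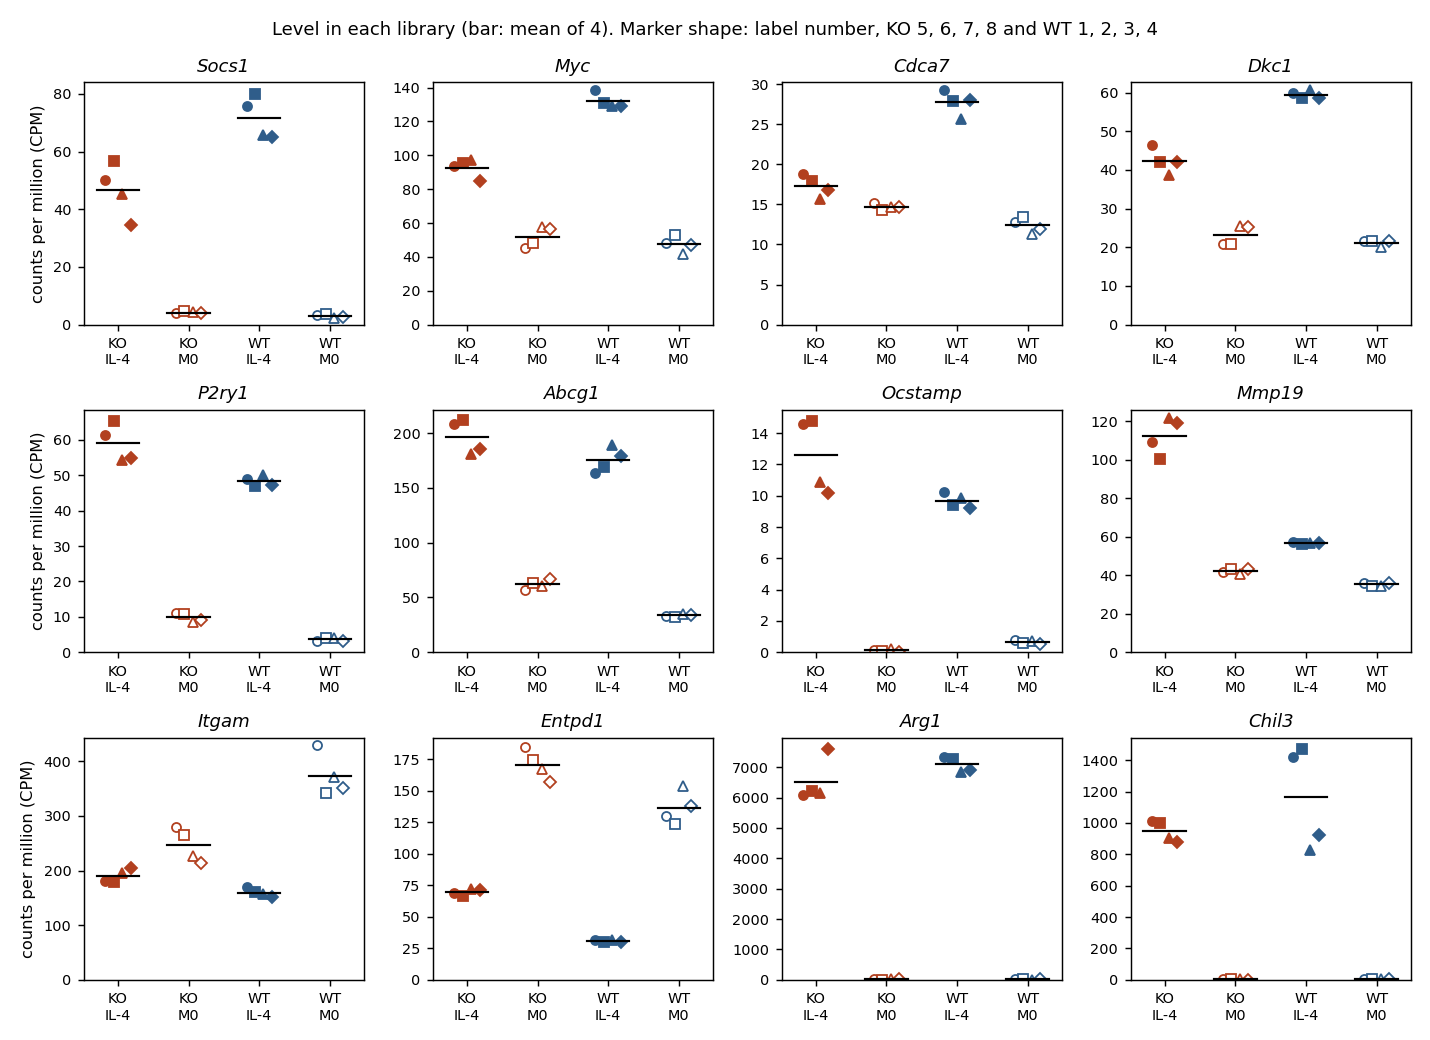
Level (CPM, vertical axes from 0) in each of the 16 libraries for 12 genes, with KO groups left of WT groups, a bar at each mean of 4 and marker shapes for the label numbers. KO IL-4 lies below WT IL-4 for Socs1, Myc, Cdca7 and Dkc1 and above it for Mmp19, Itgam and Entpd1, while the Arg1 and Chil3 values of the IL-4 groups overlap.

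Genes of ribosome production and DNA replication rose with IL-4 in both genotypes and had the lists with the most calls. Of 26 ribosome biogenesis genes, all 26 had a negative interaction, against 6564 of all 14504 genes. Of the 26, 7 were called lower (26.9%) and 0 higher, with a median of -0.28. DESeq2's Wald test called 19 of them lower. The count of 7 was 3 without label number 1, 4, 7 or 8. IL-4 raised all 26 in both genotypes, by a median of 0.51 in KO and 0.76 in WT. Dkc1 (chrX:75095854-75109776), the dyskerin that modifies ribosomal RNA, stood at 46.5, 42.1, 38.7 and 42 CPM in KO IL-4 libraries, 20.9, 20.9, 25.4 and 25.2 CPM in KO M0, 59.8, 58.6, 60.6 and 58.6 CPM in WT IL-4 and 21.5, 21.5, 20.1 and 21.7 CPM in WT M0. Its M0 libraries overlapped between genotypes and its KO IL-4 libraries all lay below the WT IL-4 libraries. The interaction of Dkc1 was -0.61 ± 0.096 (adjusted p = 0.00358), -0.41 with KO numbers 5 and 6 and -0.82 with numbers 7 and 8. Gnl3, the nucleolar GTPase nucleostemin, had -0.47 ± 0.070, and Nolc1, a nucleolar chaperone, had -0.43 ± 0.065; both were called without each of the 16 libraries. Nop2, a methyltransferase of ribosomal RNA whose promoter window is printed above, averaged 86.1 ± 1.2 CPM in KO IL-4, 58.3 ± 4.23 CPM in KO M0, 105 ± 6.7 CPM in WT IL-4 and 56.7 ± 0.759 CPM in WT M0 (SD, n = 4). Its interaction of -0.33 ± 0.073 was not called in 8 of the 16 fits without 1 library (adjusted p 0.0106 to 0.0728). The other 3 called members, Nop56, Wdr43 and Polr1b, had -0.42, -0.33 and -0.28.

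Of 30 DNA replication and S phase genes, all 30 had a negative interaction and 7 were called lower (23.3%), with a median of -0.31. DESeq2's Wald test called 15 of them lower. The count of 7 was 0 without label number 1 or 4, 1 without number 8, 2 without number 7 and 3 without number 3. IL-4 raised 28 of them in KO, by a median over the list of 0.50, and all 30 in WT, by 0.88. Cdt1 (chr8:122568015-122573130), which loads the replicative helicase, stood at 56.7, 55.8, 52.5 and 45.4 CPM in KO IL-4 libraries, 41.9, 43, 38.2 and 42 CPM in KO M0, 72.6, 68.8, 63.9 and 67.9 CPM in WT IL-4 and 39, 40.1, 34.4 and 36.1 CPM in WT M0. Its M0 libraries overlapped between genotypes, and the KO IL-4 libraries lay below the WT IL-4 libraries. The interaction was -0.52 ± 0.096 (adjusted p = 0.0129). Cdc45, a subunit of the active helicase, had -0.54 ± 0.11 (adjusted p = 0.0188), and it rose by 0.48 in KO and 1.02 in WT. Mcm7, another helicase subunit, and Prim1, the primase, had -0.42 ± 0.097 and -0.40 ± 0.092, and were not called in 8 and 10 of the 16 fits without 1 library (adjusted p 0.0173 to 0.0785 and 0.0152 to 0.0709). Uhrf1, Fen1 and Rrm1, the other 3, had -0.41, -0.39 and -0.32. Cdca7 (chr2:72476187-72486892), a chromatin factor that works with the remodeller HELLS and was named for its cell cycle expression, stood at 18.8, 17.9, 15.7 and 16.8 CPM in KO IL-4 libraries, 15.2, 14.3, 14.7 and 14.6 CPM in KO M0, 29.3, 28, 25.6 and 28 CPM in WT IL-4 and 12.9, 13.5, 11.3 and 12 CPM in WT M0. No groups overlapped, with KO above WT in M0 and below it in IL-4. The interaction of Cdca7 was -0.93 ± 0.094 (adjusted p = 6.43e-05). Of 30 genes of mitosis and the spindle, 27 had a negative interaction, with a median of -0.10, and 0 were called (2 lower at an unadjusted p under 0.05, 1 lower by DESeq2's Wald test).

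Genes of amino acid, serine and mitochondrial metabolism were among those called lower. Shmt1 (chr11:60788897-60811265), the cytosolic serine hydroxymethyltransferase of the folate cycle, stood at 8.42, 7.97, 7.55 and 6.89 CPM in KO IL-4 libraries, 4.84, 4.2, 5.12 and 5.87 CPM in KO M0, 14.7, 13.2, 12.8 and 14.9 CPM in WT IL-4 and 5.24, 4.79, 5.69 and 5.12 CPM in WT M0. The M0 groups overlapped and the IL-4 groups did not. The interaction was -0.79 ± 0.14 (adjusted p = 0.00885). Among 34 genes of the amino acid response, which the factor ATF4 controls, edgeR called 4 lower (11.8%) and 0 higher, with a median of -0.13, and DESeq2's Wald test called 11 lower and 1 higher. The count of 4 was 0 without label number 1, 4, 7 or 8. They were Shmt2, the mitochondrial form of the same enzyme (-0.44 ± 0.083), Psat1, an enzyme of serine synthesis (-0.46 ± 0.093), Slc7a1, a transporter of arginine and lysine (-0.40 ± 0.076), and Yars, the tyrosyl-tRNA synthetase (-0.28 ± 0.069). Psat1 was not called without WT M0 number 3 (adjusted p 0.0504), and Yars was not called in 10 of the 16 fits without 1 library (adjusted p 0.0218 to 0.102). IL-4 raised Shmt2 in WT (0.57) but was not called in KO (0.13). Slc7a1 was also the single member called by edgeR among the 19 tested genes of arginine and polyamine metabolism, where DESeq2's Wald test called 1 higher and 4 lower. Acy1, an aminoacylase (chr9:106432981-106438236), had 17.6, 19.5, 15.9 and 15 CPM in KO IL-4 libraries, 7.76, 7.39, 7.58 and 8.4 CPM in KO M0, 27.7, 29.3, 26 and 26.1 CPM in WT IL-4 and 8.27, 8.52, 8.01 and 7.0 CPM in WT M0. Its M0 groups overlapped and its KO IL-4 libraries were below the WT IL-4 libraries, with an interaction of -0.65 ± 0.11 (adjusted p = 0.00951).

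Of 35 genes of oxidative phosphorylation and the TCA cycle, 33 had a negative interaction, 4 were called lower (11.4%), 12 by DESeq2's Wald test, and the median was -0.19. The count of 4 was 0 without label number 1, 4, 7 or 8. IL-4 raised 31 of them in KO and 34 in WT, by medians of 0.36 in KO and 0.55 in WT. Cyc1, the cytochrome c1 of complex III, averaged 136 ± 6.88 CPM in KO IL-4, 92.6 ± 3.87 CPM in KO M0, 169.7 ± 8.41 CPM in WT IL-4 and 92.8 ± 3.23 CPM in WT M0 (SD, n = 4). The interactions were -0.32 ± 0.068 for Cyc1, -0.30 ± 0.067 for Sdhd and -0.30 ± 0.076 for Sdhb, both subunits of succinate dehydrogenase, and -0.25 ± 0.061 for Fh1, the fumarate hydratase. All 4 calls were lost in many of the 16 fits without 1 library: 8 for Cyc1, 9 for Sdhd, 10 for Fh1 and 13 for Sdhb, with adjusted p-values no higher than 0.0897. Heat shock proteins had 2 of 19 called lower (10.5%; 5 by DESeq2's Wald test), Hspa4 (-0.25 ± 0.050) and the constitutive chaperone Hspa8 (-0.25 ± 0.050), whose near-identical pseudogenes may share reads. Gusb, the lysosomal beta-glucuronidase, was the single called member of 35 lysosome and autophagy genes, with -0.29 ± 0.054. The edgeR test called 0 of 29 glycolysis and hypoxia genes, 25 cholesterol synthesis genes, 25 ER chaperone and unfolded protein response genes, 23 NRF2 targets, 19 p53 targets and 32 insulin, PI3K and mTOR genes. At an unadjusted p under 0.05 these lists held 7, 1, 0, 4, 7 and 7 members, and DESeq2's Wald test called 1, 0, 0, 0, 4 and 0. Over all 14504 genes, 1224 were higher and 1219 lower at an unadjusted p under 0.05. DESeq2's Wald test called 265 higher and 581 lower of 11692 genes.

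Lipid export and synthesis genes split. Abcg1 (chr17:31057694-31117984), which exports cholesterol to high-density lipoprotein, stood at 209, 212, 181 and 186 CPM in KO IL-4 libraries, 56.9, 63.6, 60.3 and 66.6 CPM in KO M0, 164, 169, 189 and 179 CPM in WT IL-4 and 33.3, 31.9, 34.9 and 34.1 CPM in WT M0. KO M0 libraries lay above WT M0 libraries and the IL-4 groups overlapped. IL-4 raised it by 1.67 in KO and 2.38 in WT, with an interaction of -0.71 ± 0.089 (adjusted p = 0.000563). Of 21 LXR targets and fatty acid synthesis genes it was the only one called lower, while 3 were called higher (19% called in all, median 0.16). Pltp, the phospholipid transfer protein, stood at 78.4, 79.8, 85 and 72.8 CPM in KO IL-4 libraries, 176, 177, 154 and 165 CPM in KO M0, 22.5, 25.3, 27.5 and 25.3 CPM in WT IL-4 and 72, 67.8, 78 and 78.9 CPM in WT M0. It was higher in KO than in WT in both states, and it fell less with IL-4 in KO (-1.09) than in WT (-1.56). The interaction of Pltp was 0.47 ± 0.095 (adjusted p = 0.0182), and it was not called without KO IL-4 number 7, WT IL-4 number 2 or WT M0 number 4 (adjusted p up to 0.0522). Fads2 and Scd1, desaturases of fatty acids, had 0.57 ± 0.13 and 0.38 ± 0.096, and their calls were lost in 9 and 13 of the 16 fits without 1 library (adjusted p 0.026 to 0.079 and 0.0204 to 0.13).

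**Figure D3:**
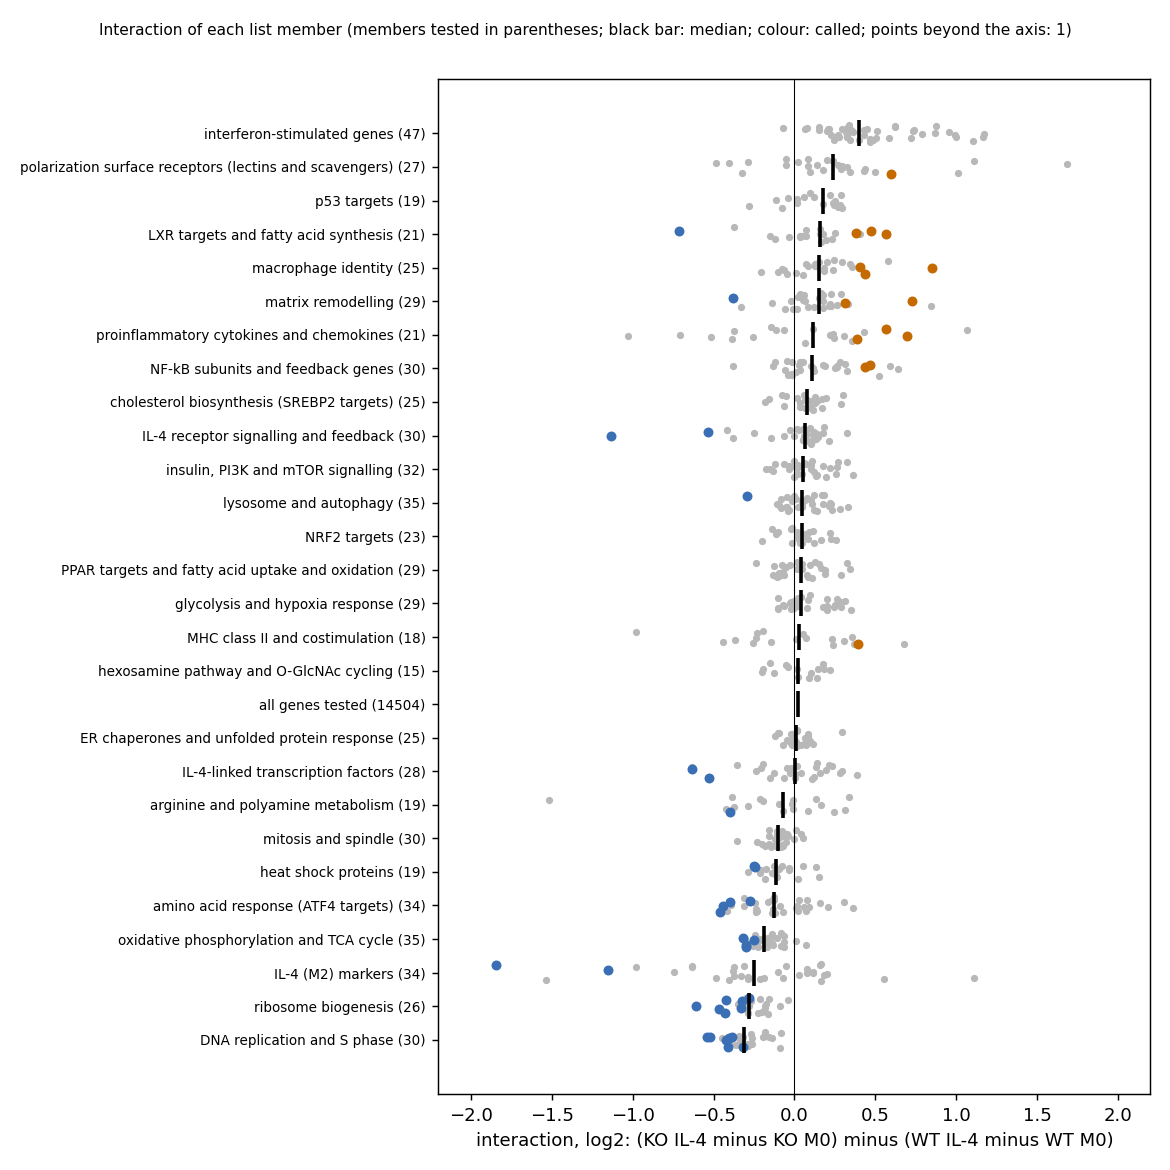
Interaction (log2, horizontal axis) of every tested member of 27 pathway lists, ordered by the median, which is drawn as a black bar, with called members in colour. All members of the ribosome biogenesis and DNA replication lists lie left of 0, and 46 of 47 interferon-stimulated genes lie right of it without a call.

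Among proteins of the cell surface, Entpd1, Itgam, Ptafr, Cd33, Cd93 and Cxcr4 fell with IL-4 in both genotypes and fell less in KO, while P2ry1, Flt1 and Anpep had a lower interaction. Entpd1 (chr19:40612366-40741602), the ectonucleotidase CD39 that degrades extracellular ATP and ADP, stood at 69.2, 66.6, 72.1 and 71.1 CPM in KO IL-4 libraries, 185, 174, 167 and 157 CPM in KO M0, 31.4, 30.1, 31.3 and 30.2 CPM in WT IL-4 and 130.4, 124, 154 and 138 CPM in WT M0. No groups overlapped, and KO was above WT in both states, by a log2 value of 1.18 in IL-4 and 0.32 in M0. IL-4 lowered Entpd1, by a response of -1.29 in KO and -2.15 in WT, with an interaction of 0.86 ± 0.086 (adjusted p = 6.43e-05). Itgam (chr7:128062640-128118491), the integrin chain CD11b, stood at 180.5, 178, 196 and 204 CPM in KO IL-4 libraries, 279.6, 264, 226 and 214 CPM in KO M0, 169, 159.9, 158 and 152 CPM in WT IL-4 and 429.8, 342, 372 and 351 CPM in WT M0. KO M0 libraries all lay below WT M0 libraries and KO IL-4 libraries all lay above WT IL-4 libraries. The interaction of Itgam was 0.85 ± 0.12 (adjusted p = 0.00141), 0.62 with KO numbers 5 and 6 and 1.08 with numbers 7 and 8. Ptafr (chr4:132564067-132582683), the receptor of platelet-activating factor, stood at 30.2, 34.6, 33.8 and 33 CPM in KO IL-4 libraries, 53.6, 55, 52.8 and 52.9 CPM in KO M0, 13.4, 13.2, 18.1 and 15.5 CPM in WT IL-4 and 54.4, 38.6, 48.6 and 51.3 CPM in WT M0. Its M0 groups overlapped while all KO IL-4 libraries lay above all WT IL-4 libraries, and the interaction was 0.98 ± 0.14 (adjusted p = 0.00146).

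Cd33, a sialic acid-binding lectin, Cd93, a C-type lectin-like receptor, and Cxcr4, the receptor of CXCL12, had the same pattern, with overlapping M0 groups and KO IL-4 libraries above WT IL-4 libraries. Cd33 ranged over 9.16 to 11.3 CPM in KO IL-4 and 4.57 to 5.49 CPM in WT IL-4, with an interaction of 0.84 ± 0.13. Cd93 ranged over 229 to 247 CPM in KO IL-4 and 108 to 132 CPM in WT IL-4, with 0.80 ± 0.13. Cxcr4 ranged over 37.5 to 43.7 CPM in KO IL-4 and 20.8 to 23.7 CPM in WT IL-4, with 0.66 ± 0.090. Gprc5b, an orphan G protein-coupled receptor, rose with IL-4 in KO (0.44) and fell in WT (-0.29), and the interaction was 0.74 ± 0.12. Anpep (chr7:79821803-79848210), the aminopeptidase CD13, went the other way, at 575, 562, 531 and 462 CPM in KO IL-4 libraries, 273, 286, 269.9 and 294 CPM in KO M0, 418, 408, 447 and 434 CPM in WT IL-4 and 142, 139, 136 and 147 CPM in WT M0. No groups overlapped, with KO above WT in both states and by more in M0, and the interaction was -0.68 ± 0.083 (adjusted p = 0.000559). Of 27 lectins and scavenger receptors 21 had a positive interaction, with a median of 0.24, against 7940 positive of all 14504 genes. Only Stab1, the scavenger receptor stabilin-1, was called (3.70%). Its interaction of 0.60 ± 0.14 was lost in 11 of the 16 fits without 1 library (adjusted p 0.0156 to 0.0805). The costimulation and MHC class II list had 1 of 18 called higher (2 by DESeq2's Wald test), 4632428N05Rik, the gene of the checkpoint protein VISTA, with 0.40 ± 0.090, and the call was lost in 11 of those fits (adjusted p 0.0153 to 0.0755).

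Macrophage identity genes, 3 of 25 called higher (12%; 5 by DESeq2's Wald test), were Itgam, Lyz2, the lysozyme of phagocytes, and Cd14, a coreceptor for bacterial lipopolysaccharide. Lyz2 stood at 2308, 2403, 2544 and 2773 CPM in KO IL-4 libraries, 6086, 5491, 5004 and 5228 CPM in KO M0, 3594, 3717, 3059 and 3349 CPM in WT IL-4 and 10745, 10260.5, 10197 and 9209 CPM in WT M0. KO libraries lay below WT libraries in both states, and Lyz2 fell less with IL-4 in KO (-1.12) than in WT (-1.56). Reads of its near-identical neighbour Lyz1 may be shared with it. Cd14 averaged 32 ± 2.56 CPM in KO IL-4, 165 ± 7.68 CPM in KO M0, 28.5 ± 2.78 CPM in WT IL-4 and 195 ± 14.5 CPM in WT M0 (SD, n = 4). Their interactions, 0.44 ± 0.11 and 0.41 ± 0.10, were lost in 12 and 13 of the 16 fits without 1 library (adjusted p 0.0214 to 0.0885 and 0.0466 to 0.103). All 3 genes are also on the macrophage marker list. The other 7 markers of that list summed to 3074 to 3781 CPM in KO IL-4, 2877 to 3824 CPM in KO M0, 3498 to 3734 CPM in WT IL-4 and 3599.5 to 3844 CPM in WT M0, and these ranges overlapped.

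Among genes whose highest group averaged 5 CPM or more and that were called without each of the 16 libraries, the largest difference was that of Ocstamp (chr2:165395450-165400394), a membrane protein needed for the fusion of macrophages and osteoclast precursors. It stood at 14.6, 14.7, 10.9 and 10.1 CPM in KO IL-4 libraries, 0.153, 0.0887, 0.211 and 0.0261 CPM in KO M0, 10.3, 9.44, 9.84 and 9.19 CPM in WT IL-4 and 0.747, 0.597, 0.707 and 0.501 CPM in WT M0. All KO M0 libraries lay below all WT M0 libraries, and the IL-4 groups overlapped, with KO numbers 5 and 6 highest. IL-4 raised it by 6.73 in KO and 3.92 in WT, with an interaction of 2.81 ± 0.35 (adjusted p = 0.000563). The gap of KO to WT in M0 was -2.43 (adjusted p = 2.77e-05). Under IL-4 it was 0.38 (adjusted p = 0.0683). The level in KO M0 number 8 was under the 0.0392 CPM that a count of 0 allows there, so the size of the fold is uncertain. Of 7 tested markers of osteoclasts and fused cells it was the only one called, and DESeq2's Wald test called 3. Dcstamp, its partner in fusion, had 1.42 ± 0.56 (adjusted p = 0.197), Acp5, the phosphatase of osteoclasts, had 1.11 ± 0.31 (adjusted p = 0.0696) and Mmp9, a gelatinase, had 0.85 ± 0.25 (adjusted p = 0.0858). Mmp9 stood at 4.45, 4.66, 3.04 and 4.34 CPM in KO IL-4 libraries, 5.96, 5.91, 4.14 and 3.93 CPM in KO M0, 18.1, 17.3, 14.5 and 17.5 CPM in WT IL-4 and 45, 29, 45 and 28.8 CPM in WT M0, so KO was far below WT in both states.

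Secreted factors and matrix genes were called in both directions. Mmp19 (chr10:128790910-128800827), a matrix metalloproteinase, stood at 109, 100.4, 122 and 119 CPM in KO IL-4 libraries, 41.7, 43.4, 40.8 and 43 CPM in KO M0, 57.5, 56, 56.5 and 56.7 CPM in WT IL-4 and 35.9, 34.1, 34.6 and 36.1 CPM in WT M0. No groups overlapped, and the excess of KO over WT was a log2 value of 0.99 in IL-4 and 0.26 in M0. The interaction of Mmp19 was 0.73 ± 0.073 (adjusted p = 6.43e-05). Among 29 matrix genes 2 were called higher and 1 lower (10.3%), against 4 and 1 in DESeq2's Wald test. Plau, the urokinase, rose with IL-4 in KO (0.34) and was not called in WT (0.03), with an interaction of 0.31 ± 0.053. Pdgfa, a growth factor for mesenchymal cells, fell in KO (-0.21) and rose in WT (0.17), and its interaction of -0.38 ± 0.093 was lost in 12 of the 16 fits without 1 library (adjusted p 0.0219 to 0.0901). Among 21 proinflammatory cytokines and chemokines 3 were called higher (14.3%) and 0 lower, against 5 higher and 0 lower in DESeq2's Wald test. They were the monocyte chemoattractants Ccl7 (0.70 ± 0.16) and Ccl12 (0.57 ± 0.14), near relatives whose reads may be split between copies, and Csf1 (0.38 ± 0.096), the growth factor that maintains macrophages. Ccl7 averaged 449 ± 35.1 CPM in KO IL-4, 12.2 ± 2.85 CPM in KO M0, 589 ± 47.7 CPM in WT IL-4 and 26.2 ± 2.11 CPM in WT M0 (SD, n = 4), so KO was lower in both states and by less in IL-4. These calls were lost in 11, 13 and 13 of the 16 fits without 1 library, with adjusted p-values no higher than 0.104. NF-kB subunits and feedback genes had 2 of 30 called higher (6.67%). Cflar, which blocks caspase-8, fell in WT (-0.37) and was not called in KO (0.10), with 0.47 ± 0.089. Tnfaip2 had 0.44 ± 0.086 and was not called without WT IL-4 number 2 (adjusted p 0.0531).

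The remaining genes with large differences served varied roles. Fos (chr12:85473890-85477274), an AP-1 transcription factor, stood at 25.9, 25.1, 27.8 and 28.9 CPM in KO IL-4 libraries, 18.7, 17.3, 16.9 and 19.7 CPM in KO M0, 29.7, 27.7, 27.9 and 30.4 CPM in WT IL-4 and 33.3, 31.4, 30.2 and 29.8 CPM in WT M0. KO M0 libraries were the low ones, while the KO IL-4, WT IL-4 and WT M0 values lay close together. IL-4 raised Fos in KO (0.57) and was not called in WT (-0.11), and the interaction was 0.68 ± 0.086 (adjusted p = 0.000572). Serpinb8, an intracellular protease inhibitor, stood at 7.42, 6.16, 7.46 and 7.05 CPM in KO IL-4 libraries, 10.4, 10.6, 8.23 and 9.2 CPM in KO M0, 3.41, 3.55, 3.78 and 3.46 CPM in WT IL-4 and 10.3, 9.06, 11.3 and 10.4 CPM in WT M0. Its M0 groups overlapped, its KO IL-4 libraries were above its WT IL-4 libraries, and the interaction was 1.08 ± 0.13 (adjusted p = 0.000559). Gas7, an actin-binding protein, rose with IL-4 in KO (0.65) and was not called in WT (0.00), with 0.64 ± 0.12. Bzw2 (chr12:36091835-36156841), a regulator of translation initiation whose promoter window is printed above, stood at 44.8, 44.3, 45.4 and 42.3 CPM in KO IL-4 libraries, 42.6, 44.4, 51.2 and 49.9 CPM in KO M0, 56.7, 58.5, 53.1 and 58 CPM in WT IL-4 and 36.7, 43.3, 36.1 and 39.1 CPM in WT M0. IL-4 raised it in WT (0.54) and was not called in KO (-0.09), so only the WT IL-4 libraries stood apart from the rest, with an interaction of -0.63 ± 0.091 (adjusted p = 0.00188).

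Penk, the enkephalin precursor, and Lrrc14b were the called genes with the largest excess of KO over WT in M0 among those named. Penk stood at 5.16, 4.76, 6.53 and 5.65 CPM in KO IL-4 libraries, 5.12, 4.3, 3.54 and 4.31 CPM in KO M0, 1.98, 1.97, 1.82 and 2.13 CPM in WT IL-4 and 0.786, 0.881, 0.811 and 0.802 CPM in WT M0. The KO groups overlapped each other and lay above both WT groups, and the interaction was -0.91 ± 0.18 (adjusted p = 0.0149). Lrrc14b, a leucine-rich repeat gene, stood at 1.77, 1.15, 1.39 and 1.62 CPM in KO IL-4 libraries, 7.11, 6.39, 7.0 and 7.19 CPM in KO M0, 0.381, 0.448, 0.398 and 0.543 CPM in WT IL-4 and 0.708, 1.16, 0.927 and 0.727 CPM in WT M0. It fell with IL-4 in both genotypes and fell more in KO (-2.22 in KO, -0.99 in WT), with -1.22 ± 0.24 (adjusted p = 0.0177). Tmem158, a transmembrane protein, rose by 1.64 in KO and 2.41 in WT, with -0.77 ± 0.16 (adjusted p = 0.0199).

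Seen from the other side, the difference between genotypes was more often present in IL-4 than in M0. Of the 165 genes called lower, 91 were lower in KO than in WT in IL-4 with no called gap in M0, 27 were higher in KO in M0 with no called gap in IL-4, and 25 were higher in M0 and lower in IL-4. Another 11 were lower in both states and 11 were higher in both. Of the 135 genes called higher, 53 were higher in KO in IL-4 only by the test, 35 were lower in M0 only, and 17 were lower in M0 and higher in IL-4. A further 24 were higher in both states and 6 were lower in both. Over all genes tested, KO differed from WT in M0 for 3904 (26.9%) and in IL-4 for 5877 (40.5%), and these counts share libraries with the interaction.

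**Figure D4:**
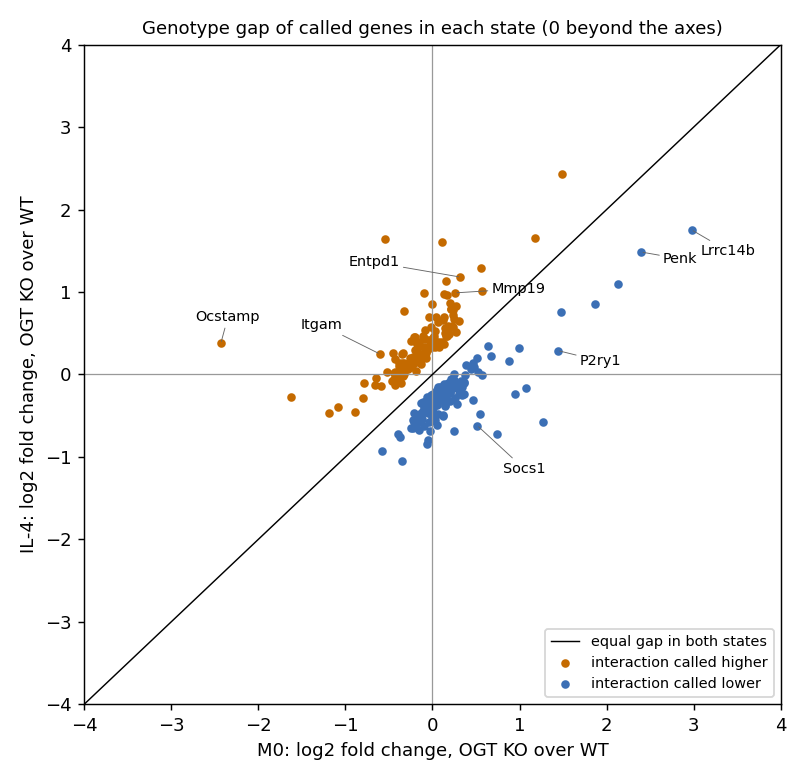
Log2 fold change of OGT KO over WT in IL-4 (vertical axis) and in M0 (horizontal axis) for the 300 genes whose interaction was called, with the line of equal gaps. Ocstamp is far to the left, with a gap in M0 and a small one in IL-4, while Lrrc14b and Penk are far to the right.

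The pairs of KO label numbers, each set against the same WT libraries, gave very different numbers of calls. With KO numbers 5 and 6 alone, 37 genes were called higher and 30 lower, and with numbers 7 and 8 alone 491 higher and 348 lower. Of the 300 genes, 48 were called with numbers 5 and 6, 265 with numbers 7 and 8 and 42 with both. Among genes with large differences that were called without each library, Cdca7 had -0.86 with numbers 5 and 6 and -1.03 with numbers 7 and 8, and Penk had -1.2 and -0.64. Flt1, which was not called without each library, had -0.86 and -2.67. The labels do not say what the KO label numbers share.

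**Figure D5:**
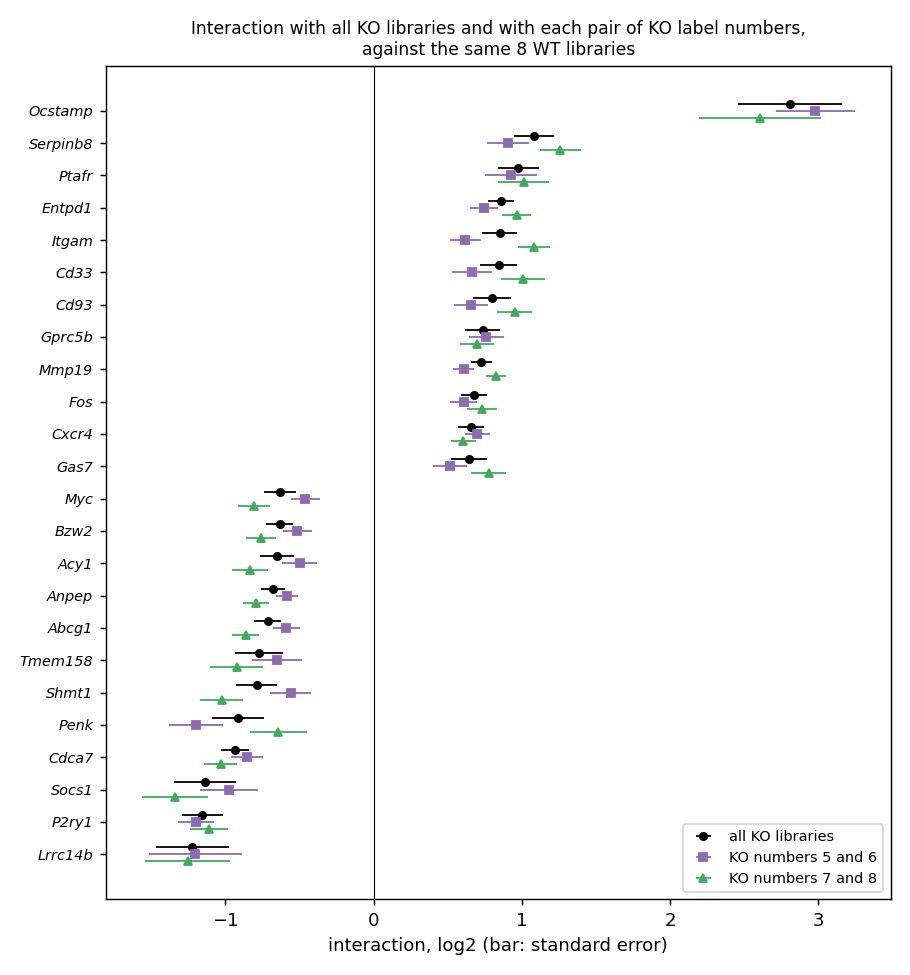
Interaction (log2, bars are standard errors) of the 24 genes with the largest called differences, computed with all 4 KO label numbers, with numbers 5 and 6 and with numbers 7 and 8, each against the same 8 WT libraries. The genes were chosen on all 16 libraries, so only the sizes are to be compared. Most have the larger interaction with numbers 7 and 8. P2ry1, Penk, Ocstamp, Gprc5b and Cxcr4 have it with numbers 5 and 6: Penk has -1.2 with numbers 5 and 6 and -0.64 with numbers 7 and 8.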

How the data were processed

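The files hold raw counts by gene symbol, deposited as the authors made them with TopHat2 2.1.0 and HTSeq 0.9.1 on mm10 (GRCm38), per the submitters' processing notes. The annotation and strand setting were not given in the sources used here, and overlapping and antisense genes cannot be told apart. Summary lines were left out of totals; reads without a feature came to 3.14 to 3.59%, ambiguous ones to 1.91 to 2.14%.

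The fit used edgeR 4.0.16 under R 4.3.3 (TMM scaling, filterByExpr by group, quasi-likelihood test, 12 residual and 5.40 prior degrees of freedom) over 16 libraries with 1 coefficient per group. Of 24421 genes, 14504 were tested, and an adjusted p under 0.05 was a call. Standard errors are the log2 value over the square root of F, and intervals are 95%. CPM use effective library sizes. A count of 0 allows 3 counts, or 0.0324 to 0.0453 CPM, for counting error only. No 2 libraries of a group agreed within sampling noise (chi-square per gene 8.51 to 74.8).

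Genes named were Ogt and Mgea5; the 12 with the largest called interaction in each direction, whose highest group averaged 5 CPM or more, called without each library; a set of IL-4 markers and mediators; and up to 4 called members of each of 27 pathway lists with the smallest adjusted p. Other genes were added after their values were seen: the remaining called list members, Pecam1 and named markers of the 12 cell type lists. The members and lists were chosen with earlier results of these data known. Scripts were tested on simulated data. The alternatives tried are DESeq2 1.42.0, other scaling and filters, the LPS libraries in the fit, a block on label number, and libraries left out.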

Additional observations from a re-analysis of the deposited data

Results flagged for a closer look

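The IL-4 response differed between KO and WT, by the test of the interaction itself (edgeR's quasi-likelihood test, adjusted p under 0.05), for 60 genes named by the stated rule. Genes with a negative log2 interaction, a lower response in KO, were Lrrc14b -1.22, P2ry1 -1.15, Socs1 -1.13, Cdca7 -0.93, Penk -0.91, Shmt1 -0.79, Tmem158 -0.77 and Abcg1 -0.71. Also negative were Anpep -0.68, Acy1 -0.65, Bzw2 -0.63, Myc -0.63, Flt1 -1.85, Socs2 -0.53, Bhlhe40 -0.53 and Slc7a1 -0.40. In metabolism and chaperones they were Shmt2 -0.44, Psat1 -0.46, Yars -0.28, Hspa4 -0.25, Hspa8 -0.25, Cyc1 -0.32, Sdhd -0.30 and Fh1 -0.25. The same sign was found for Sdhb -0.30, Cdt1 -0.52, Cdc45 -0.54, Prim1 -0.40, Mcm7 -0.42, Gusb -0.29, Gnl3 -0.47 and Nolc1 -0.43. It was found as well for Dkc1 -0.61, Nop2 -0.33 and Pdgfa -0.38. Genes with a positive log2 interaction, a higher response in KO, were Ocstamp 2.81, Serpinb8 1.08, Ptafr 0.98, Entpd1 0.86, Itgam 0.85, Cd33 0.84, Cd93 0.80 and Gprc5b 0.74. Also positive were Mmp19 0.73, Fos 0.68, Cxcr4 0.66, Gas7 0.64, Stab1 0.60, Ccl7 0.70, Ccl12 0.57 and Csf1 0.38. They further included Cflar 0.47, Tnfaip2 0.44, Pltp 0.47, Fads2 0.57, Scd1 0.38, 4632428N05Rik 0.40, Plau 0.31, Lyz2 0.44 and Cd14 0.41.

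A library far from the other 3 of its group was found in 9 of 304 groups of 4 values (2.96%), where chance gives about 1 in 20. They were Arg1 in KO IL-4 number 8 (7598 CPM), Hspa4 in KO M0 number 7 (218 CPM), Yars in WT IL-4 number 3 (123 CPM) and WT M0 number 2 (85.1 CPM), Sdhb in WT IL-4 number 3 (129 CPM), Tnfaip2 in WT M0 number 1 (175 CPM), and Hspa8 (1666 CPM), Nolc1 (47.7 CPM) and Dkc1 (20.1 CPM) in WT M0 number 3.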

How the results depend on the processing

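No called gene changed the sign of its interaction under the alternatives below, which share most of their libraries with the fit that chose the genes. The genes called higher and lower numbered 114 and 224 with DESeq2's size factors, 130 and 152 with upper-quartile factors, 97 and 154 with no filter, 143 and 286 with at least 1 CPM in 4 libraries, 265 and 581 in DESeq2's Wald test, 69 and 98 with all 24 libraries, 108 and 151 with the deep LPS libraries added, and 20 and 22 at an adjusted p under 0.01. Leaving out 1 label number or 1 library gave 16 to 284 higher and 16 to 384 lower. Without KO numbers 5 and 6 there were 491 higher and 348 lower, without KO numbers 7 and 8 37 and 30, and with the KO number pair as a term, chosen after seeing the data, 543 and 494. Pathway list members called ranged over 2 to 16 higher and 6 to 40 lower without 1 label number.

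The share of genes with the smaller response in KO was 69.0% of those raised with DESeq2's size factors or Wald test, 63.1% without KO numbers 7 and 8 and 64.2 to 70.2% without 1 label number. Of those lowered it was 74.2% with either DESeq2 setting, 72.1% without KO numbers 5 and 6, 62.6% without KO numbers 7 and 8 and 68.5 to 75.1% without 1 label number.

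Of the 60 called genes named, 2 lost the call with DESeq2's size factors, 1 with upper-quartile factors, 4 with no filter, 14 with all 24 libraries, 10 with the deep LPS libraries, 4 without KO numbers 5 and 6 and 33 without KO numbers 7 and 8. Without KO IL-4 numbers 5, 6, 7 and 8, 8, 9, 18 and 12 lost it, without KO M0 numbers 4, 7, 17 and 18, without WT IL-4 numbers 1, 2, 3 and 4, 18, 20, 6 and 16, and without WT M0 numbers 19, 1, 20 and 18. Without both libraries of label numbers 1 to 8, 41, 8, 18, 37, 6, 9, 33 and 32 lost it. Among others, Socs1 and Penk lost the call in 3 of these 8 fits. Lrrc14b, Gas7, Shmt2, Slc7a1, Cflar and Hspa4 lost it in 4, Tmem158, Flt1 and Hspa8 in 5 and Ccl7 in 7. The cause was not tested.

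The block on label number gave 875 genes higher and 755 lower, 96 and 108 of them list members, and no named call was lost while Ogt, Clec10a and Il4ra were gained. The numbers were not taken to pair the libraries: deviations from group means correlated at 0.465 to 0.612 between same-numbered KO libraries but at -0.0245 to 0.469 in WT, and 3 of 4 numbers in each genotype correlated best with their own number. KO libraries within numbers 5 and 6 or 7 and 8 correlated at 0.465 to 0.616, and across these pairs at -0.634 to -0.444.

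Depth limits genes near 0 CPM in M0, such as Ocstamp, Ccl22 and Pdcd1lg2, whose folds are uncertain.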

Other observations

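Interferon-stimulated genes, the antiviral set that interferons switch on, leaned higher in the interaction without a call. Of 47 tested, 46 had a positive value, the median was 0.40, and 0 were called by edgeR, 1 by DESeq2's Wald test and 14 were higher at an unadjusted p under 0.05. Over all 14504 genes, 7940 had a positive value and 1224 were higher at an unadjusted p under 0.05. IL-4 lowered 17 of the interferon-stimulated genes in KO and 32 in WT. Isg15, a ubiquitin-like modifier, stood at 10.6, 3.72, 3.03 and 3.77 CPM in KO IL-4 libraries, 7.78, 6.79, 7.54 and 6.01 CPM in KO M0, 2.84, 3.3, 4.25 and 3.56 CPM in WT IL-4 and 10.8, 7.55, 7.05 and 8.39 CPM in WT M0. Ifit1, which binds viral RNA, stood at 5.26, 1.52, 0.669 and 1.56 CPM in KO IL-4 libraries, 4.28, 4.33, 4.8 and 3.59 CPM in KO M0, 0.486, 1.0, 1.24 and 1.31 CPM in WT IL-4 and 6.02, 3.43, 3.22 and 4.25 CPM in WT M0. Irf7, a transcription factor of the interferon response, stood at 18.1, 8.79, 4.91 and 6.42 CPM in KO IL-4 libraries, 14.1, 13.6, 10.7 and 9.33 CPM in KO M0, 9.6, 9.72, 10.5 and 8.56 CPM in WT IL-4 and 23.8, 13.4, 13.7 and 17.5 CPM in WT M0. KO IL-4 number 5 was the highest of its group for all 3 genes, and WT M0 number 1 was the highest of its group.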
